A study of Homo sapiens with 6 samples.

Results

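The accessible chromatin described here lies at 4 human loci, those of TAL1, LYL1, LMO2 and LDB1. It was taken as the ATAC-seq peaks that overlap a fixed hg19 window around each gene by at least 1 bp. The windows were chr1 from 47.600 to 47.800 Mb for TAL1, with its neighbour STIL and the enhancers downstream of TAL1, and chr19 from 13.195 to 13.230 Mb for LYL1. They were chr11 from 33.850 to 34.050 Mb for LMO2 with its upstream enhancers, and chr10 from 103.850 to 103.900 Mb for LDB1. They held 63 of 112610 peaks of the shHMGA1 list and 71 of 127153 peaks of the control list, 134 of 239763 in all.

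TAL1 is a basic helix-loop-helix factor that binds E-boxes together with an E protein, and LYL1 is its closest relative. LMO2 does not bind DNA itself. It bridges the helix-loop-helix pair and a GATA factor to LDB1, which binds itself and so holds distant enhancers and promoters together. The complex is known as a central regulator of blood stem cells, red cells and megakaryocytes, and TAL1, LMO2 and LYL1 are each activated by rearrangements in T-cell leukaemia. A known rearrangement of TAL1 is a deletion that places it under the promoter of STIL, a centriole gene.

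The cells were DAMI, a megakaryoblastic leukaemia line, and stocks of it are known to share their identity with the erythroleukaemia line HEL. The groups were 3 samples infected with an shHMGA1 lentivirus, which silences HMGA1 by a short hairpin RNA, and 3 infected with a control lentivirus. HMGA1 is an architectural chromatin protein with a preference for AT-rich DNA, and the study concerns its role as myeloproliferative neoplasms progress. All 6 samples are labelled DAMI, but the study's design also names the line SET-2 and the peak lists name no line, so whether SET-2 reads entered them is not stated. Each group was given as 1 peak list without values per sample. The differences below thus rest on 1 list per group with no replicate, and none was tested. Read depth is unknown, and neither the identity of the line nor the loss of HMGA1 can be checked from peak positions.

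Which of the peaks below cover a gene start was not annotated here, since the annotation used is on GRCh38 and the peaks are on hg19. Peaks are named for their window, which can also hold neighbouring genes such as STIL. To which gene a peak belongs was not determined. By RefSeq the genes follow each other with rising coordinate as PDZK1IP1, TAL1, STIL and CMPK1, as NFIX, LYL1, TRMT1 and NACC1, as FBXO3, LMO2 and CAPRIN1, and as HPS6, LDB1 and PPRC1. RefSeq start regions were found for 3 of the 4 genes (TAL1, LYL1 and LDB1), and the stretches from 100 bases before the start to 20 bases after it are shown because GATA factors are the partners of these proteins. Capitals mark GATAA on either strand, which reads TTATC on the printed one. The stretches are on GRCh38.p14, all on the minus strand: TAL1 at chr1:47232316-47232435, LYL1 at chr19:13102839-13102958 and LDB1 at chr10:102114983-102115102.
TAL1: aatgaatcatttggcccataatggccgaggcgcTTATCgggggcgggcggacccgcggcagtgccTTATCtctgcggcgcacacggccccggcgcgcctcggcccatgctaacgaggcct
LYL1: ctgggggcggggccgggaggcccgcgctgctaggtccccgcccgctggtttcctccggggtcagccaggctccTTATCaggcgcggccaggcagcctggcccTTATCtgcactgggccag
LDB1: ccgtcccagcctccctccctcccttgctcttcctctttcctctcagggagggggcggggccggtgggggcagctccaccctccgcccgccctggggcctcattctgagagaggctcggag

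The TAL1 and LYL1 stretches hold 2 GATA motifs each and that of LDB1 none. Among all 35116 RefSeq start regions of 300 bases, 22.7% hold at least 1 such motif and 4.80% at least 2. The motifs of TAL1 begin at positions -67 and -35 from the start, and those of LYL1 at -27 and 3. A second TAL1 start region in the same table has none. A composite of an E-box part and a GATA motif, known to be bound by the complex, was searched as CTG, then 7 to 9 bases of any kind, then GATAA, on both strands. It was found 1 time in the LYL1 region, in neither region of TAL1 and not in that of LDB1, and 1.86% of all start regions hold it. An E-box, CANNTG, which reads the same on both strands, was found 1 time in the first TAL1 region only, and 68.7% of all start regions hold 1 or more. All 4 regions lie between 25.3% AT for LYL1 and 45.7% for the second TAL1 start, beside a median of 41.3% over all start regions. These matches are letters in a window and do not show binding.

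The 4 windows were open in both groups, and their peak numbers stood in nearly the ratio of the whole lists. There were 63 shHMGA1 and 71 control peaks, a ratio of 0.887, beside 0.886 for the whole lists. The peaks covered 78.0 kb in shHMGA1 and 86.7 kb in control cells, a ratio of 0.899 beside 0.909 for the whole lists. Of all bases in a peak of either list, 74.6% were in both, against 63.0% over the whole lists. Peaks here were also wider, with medians of 740 bp in shHMGA1 and 686 bp in control. Over the whole shHMGA1 and control lists the medians were 539 and 525 bp. By window the share was 74.1% at TAL1, 81.5% at LYL1, 68.2% at LMO2 and 81.0% at LDB1. TAL1 was the most densely covered window and LMO2 the least.

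**Figure D1:**
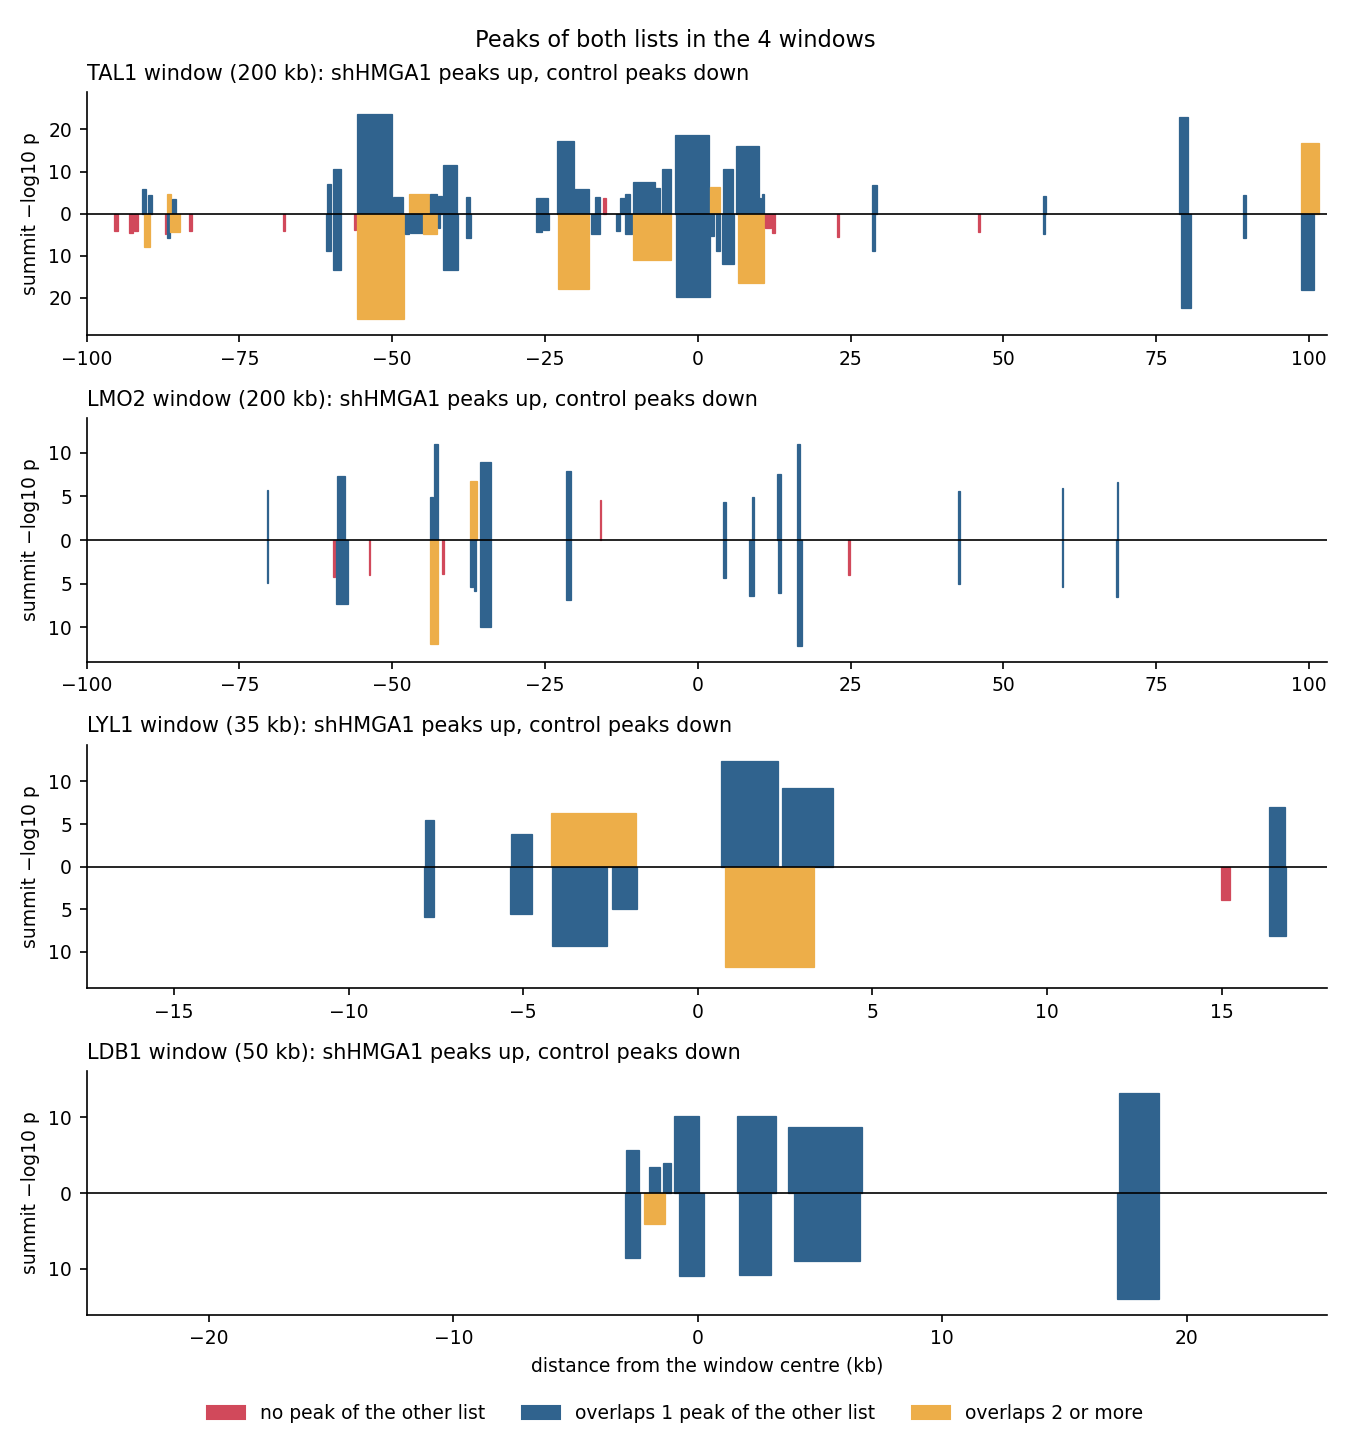
Each bar is 1 peak of its true width, drawn by distance from the centre of its window (kb), with the summit −log10 p as height, shHMGA1 peaks upward and control peaks downward. The tall peaks stand at the same places in both lists, and the red bars, which have no peak in the other list, are low. Heights depend on read depth, which is unknown.

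At TAL1, the DNA-binding core of the complex, the shHMGA1 list held 35 peaks and the control list 40, a ratio of 0.875 (95% exact interval 0.540 to 1.41). That is 175 shHMGA1 and 200 control peaks per Mb. They covered 53.4 kb of the 200 kb window in shHMGA1 cells (26.7%) and 60.7 kb in control cells (30.4%). Widths ran from 315 to 5716 bp in shHMGA1 (median 827) and from 155 to 7716 bp in control (median 775.5). The deposited area of a peak, which sums its significance over its width, ran from 266 to 31835 in shHMGA1 and from 202 to 37720 in control. The longest stretch without a peak of either list was 21.8 kb, from 47756961 to 47778713.

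The TAL1 window held some of the largest accessible sites of either list. By area, 4 of its 35 shHMGA1 peaks and 5 of its 40 control peaks were among the top 1% of their own list. The largest peak of the window was chr1:47644277-47649992 in shHMGA1, with an area of 31835, a summit −log10 p of 23.8 and rank 89 in its list. In control it was chr1:47644270-47651985, with an area of 37720, a summit value of 25.1 and rank 55. Both summits lay within 6 bp of each other, at 47646926 and 47646932. The next by area was chr1:47696243-47701909 in shHMGA1, 5667 bp wide and of rank 191, and chr1:47696451-47701927 in control, 5477 bp wide and of rank 164. Here the summit was the same base, 47698020, in both lists. The peak at chr1:47778714-47780272 in shHMGA1 and chr1:47779070-47780749 in control was narrower, 1559 and 1680 bp, with summit values of 22.9 and 22.5, and its summits also fell on 1 base.

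**Figure D2:**
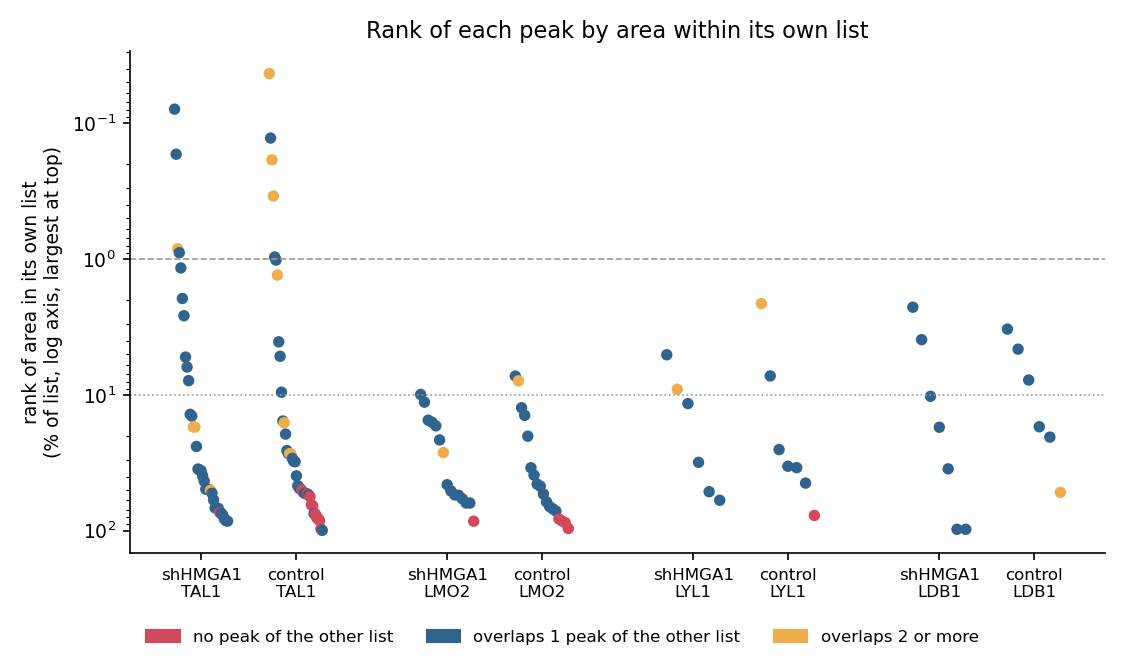
Each point is 1 peak, placed by the rank of its area within its own list (% of the list, log axis, largest at the top), by list and window. Dashed and dotted lines mark the top 1% and 10%; peaks in the top 1% are those of TAL1, and the peaks without a partner (red) lie in the lower ranks.

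Several broad TAL1 peaks of control cells lay on 2 or more peaks of the shHMGA1 list. Of the 40 control peaks, 7 overlapped 2 or more shHMGA1 peaks, and over the whole control list 3.58% did so. Wide peaks do this more often: of the widest 1% of the control list, at least 3200 bp wide, 47.0% overlapped 2 or more shHMGA1 peaks, and 4 of the 5 such peaks of TAL1 did. The exception was chr1:47696451-47701927, second by area, which met 1 shHMGA1 peak. The widest control peak, chr1:47644270-47651985 (7716 bp), matched shHMGA1 peaks of 5716 and 1582 bp with 185 bp between them. The control peak chr1:47689409-47695651 (6243 bp, area 18309) matched 3 shHMGA1 peaks of 3600, 740 and 1440 bp, with gaps of 135 and 411 bp. The control peak chr1:47677090-47682256 (5167 bp, area 22070) matched shHMGA1 peaks of 2725 and 2445 bp, 116 bp apart, with areas of 13289 and 2832. The control peak chr1:47706628-47710888 (4261 bp) matched shHMGA1 peaks of 3786, 315 and 330 bp, with gaps of 109 and 156 bp.

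The other 3 such control peaks at TAL1 were narrower, at chr1:47609316-47610378, chr1:47613705-47615239 and chr1:47655097-47657335, each with 2 shHMGA1 peaks. The opposite also occurred. At TAL1, 4 of the 35 shHMGA1 peaks overlapped 2 or more control peaks, and over the whole shHMGA1 list 3.72% did so. None of the 4 TAL1 peaks among the widest 1% of the shHMGA1 list did, beside 46.0% of that class over the list. The shHMGA1 peak chr1:47652731-47655989 (3259 bp) spanned 3 control peaks of 660, 2052 and 2239 bp, and chr1:47702020-47703579 (1560 bp) spanned 2 control peaks of 624 and 686 bp. The remaining pair were chr1:47613119-47613853 and chr1:47798729-47801685, the second of which crosses the edge of the window. The pieces of both kinds were mostly close together. Over the 4 windows, 8 of the 12 gaps inside control peaks and 6 of the 7 gaps inside shHMGA1 peaks were 150 bp or less. After peaks within 150 bp of each other were merged, 4 of 50 shHMGA1 and 4 of 59 control peaks had 2 or more partners in the 4 windows. Over the merged lists 2.18% of shHMGA1 and 2.49% of control peaks had. Before merging there were 6 of 63 shHMGA1 and 10 of 71 control peaks. Merging also made wider peaks, so those with 2 or more partners after it are in part other sites.

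**Figure D3:**
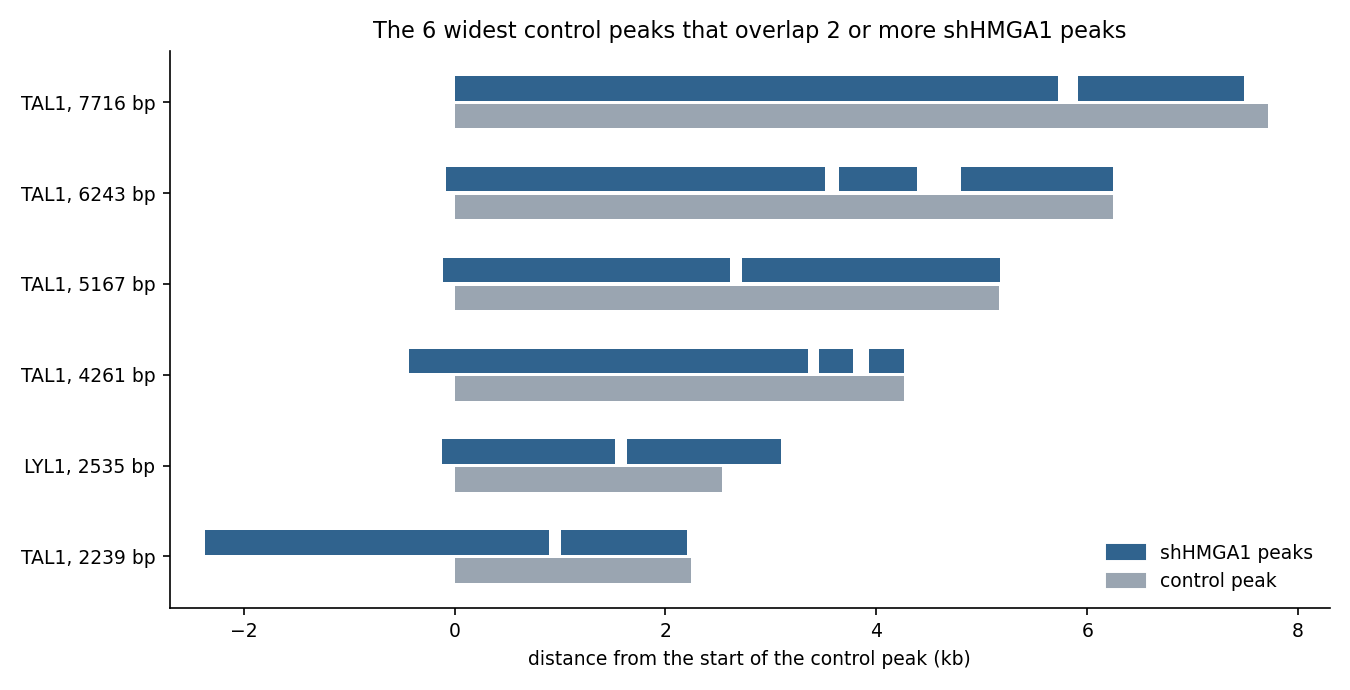
The 6 widest control peaks of the 4 windows that overlap 2 or more shHMGA1 peaks (grey), each below its shHMGA1 partners (blue), by distance from the start of the control peak (kb). The widest, 7716 bp, meets 2 shHMGA1 peaks 185 bp apart, and the next, 6243 bp, meets 3.

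Sharing differed in count between the lists. In shHMGA1, 1 of the 35 peaks (2.86%, 95% exact interval 0.0723 to 14.9) had no control partner, and over the whole shHMGA1 list 14.8% had none. In control, 11 of the 40 peaks (27.5%, interval 14.6 to 43.9) had no shHMGA1 partner, beside 24.9% of the whole control list. With a reciprocal overlap of 50%, 15 of 35 shHMGA1 and 20 of 40 control peaks had no partner that met it. Beside them stood 29.6% of the shHMGA1 and 37.7% of the control list. Peaks that overlap the other list by less than this are among them. The low shHMGA1 share at TAL1 thus holds under the 1 bp rule alone of these 2 rules. Under that rule wide peaks seldom lack a partner, and the median width was 827 bp for these shHMGA1 peaks and 539 bp for their list. The shHMGA1-only peak was chr1:47684534-47684956 (423 bp), with an area of 339, a summit value of 3.63 and the nearest control peak 546 bp away. The 11 that were found in control alone had areas from 210 to 594, and the summit values of 10 of them were under the median of their list.

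The control-only peak of TAL1 with the highest summit value was chr1:47722859-47723190 (332 bp, area 564), at 5.59 and 5368 bp from the nearest shHMGA1 peak. It was followed by chr1:47612842-47612996 (4.80), chr1:47712175-47712707 (4.65), chr1:47606897-47607566 (4.55) and chr1:47745895-47746224 (4.49). Of these, chr1:47745895-47746224 was the most isolated, with the nearest shHMGA1 peak 10312 bp away. The control-only peak at chr1:47612842-47612996 lay only 123 bp from an shHMGA1 peak.

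At 16 TAL1 sites 1 peak of each list met exactly 1 of the other. The shHMGA1 peak was the narrower at 10 and the wider at 6, and the log2 width ratio (shHMGA1 over control) had a median of -0.10, beside -0.03 over 83581 such sites of the lists. The lowest ratio was -1.02, for a site 719 bp wide in shHMGA1 (chr1:47683239-47683957) and 1459 bp in control (chr1:47682530-47683988). The highest was 1.36, for a site 724 bp wide in shHMGA1 (chr1:47657481-47658204) and 283 bp in control (chr1:47657488-47657770). Summits were a median of 10 bp apart.

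LYL1, which is known from mice to stand in for TAL1 in part, had few peaks because its window was short. Per Mb there were 171 shHMGA1 and 200 control peaks, beside 175 and 200 at TAL1. Its 35 kb window held 6 shHMGA1 and 7 control peaks, a ratio of 0.857 (95% exact interval 0.238 to 2.98). They covered 6.83 kb in shHMGA1 and 6.45 kb in control cells, a ratio of 1.06, or 0.968 with the window widened by 50 kb at each end. Every shHMGA1 peak had a control partner (0 of 6 without one; exact upper limit 45.9%), beside 14.8% of the whole shHMGA1 list without one. In control 1 of 7 had none, beside 24.9% of the whole control list. It was chr19:13227494-13227737 (244 bp), with an area of 310, a summit value of 3.88 and 1111 bp to the nearest shHMGA1 peak.

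The largest LYL1 peak by area was chr19:13213166-13214810 in shHMGA1 (1645 bp, area 6261, summit value 12.4) and chr19:13213288-13215822 in control (2535 bp, area 9777, summit value 11.8). Its summits were at 13213789 and 13213758. The control peak also overlapped a second shHMGA1 peak, chr19:13214924-13216381 (1458 bp, area 3360), which began 113 bp after the first and ended beyond the control peak. The reverse was seen close by, where the shHMGA1 peak chr19:13208306-13210730 (2425 bp, area 4178) spanned control peaks of 1558 and 713 bp with areas of 4868 and 1016. The 3 one-to-one sites were slightly narrower in shHMGA1, with log2 width ratios from -0.23 (245 bp at chr19:13204691-13204935 in shHMGA1 and 287 bp at chr19:13204655-13204941 in control) to -0.06 (461 bp at chr19:13228848-13229308 in shHMGA1 and 481 bp at chr19:13228861-13229341 in control).

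LMO2, the bridging member, had more scattered and smaller peaks. Its 200 kb window held 15 shHMGA1 and 18 control peaks, a ratio of 0.833 (95% exact interval 0.391 to 1.75). That is 75 shHMGA1 and 90 control peaks per Mb. They covered 9.22 kb in shHMGA1 (4.61% of the window) and 11.3 kb in control cells (5.65%), a ratio of 0.816. When both lists were shortened to their 56305 strongest peaks by summit value, the ratio of the lists was 1 by construction. The order of the LMO2 counts then turned round to 11 shHMGA1 and 9 control peaks, a ratio of 1.22. Of these, 3 of 11 shHMGA1 and 1 of 9 control peaks had no partner. Beside them stood 14.9% of the shHMGA1 and 15.4% of the control list so shortened, and at these numbers such shares are few peaks. Median width was 463 bp in shHMGA1 and 417.5 bp in control. No LMO2 peak was in the top 1% of its list by area, and the window ended in 31.2 kb without a peak of either list, from 34018838 on.

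The largest LMO2 peak by area was chr11:33914434-33916113 in shHMGA1 (1680 bp, area 3852, summit value 8.92) and chr11:33914410-33916129 in control (1720 bp, area 4860, summit value 10.01). The site with the highest summit value in control was another, chr11:33966239-33966983, 745 bp wide with a value of 12.1, and its shHMGA1 partner chr11:33966228-33966789 was 562 bp wide with 11.05. The highest in shHMGA1 was chr11:33906759-33907442, with 11.07. Together with the shHMGA1 peak chr11:33906217-33906652, 106 bp before it, that one lay on the control peak chr11:33906101-33907422 (1322 bp, summit value 11.9). The shHMGA1 peak chr11:33912768-33913929 (1162 bp) spanned control peaks of 418 and 417 bp, 104 bp apart.

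In the LMO2 window 1 of 15 shHMGA1 peaks (6.67%, exact interval 0.169 to 31.9) and 4 of 18 control peaks (22.2%, interval 6.41 to 47.6) had no partner, beside 14.8% of the whole shHMGA1 and 24.9% of the whole control list. All 5 lay below the median summit value of their list. The shHMGA1-only peak was chr11:33933964-33934137 (174 bp, area 265), with a summit value of 4.61 and 4712 bp to the nearest control peak. The control-only peaks were chr11:33890324-33890699, chr11:33896132-33896356, chr11:33908153-33908479 and chr11:33974527-33974843. They were 225 to 376 bp wide with areas from 213 to 280, and their nearest shHMGA1 peaks were 192, 3892, 711 and 7738 bp away.

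Of the 11 one-to-one LMO2 sites, 6 were narrower and 5 wider in shHMGA1. Their log2 width ratios had a median of -0.03. The lowest, -1.31, belonged to a site of 318 bp in shHMGA1 (chr11:33958870-33959187) and 787 bp in control (chr11:33958447-33959233). The highest, 0.38, belonged to a site of 600 bp in shHMGA1 (chr11:33963046-33963645) and 462 bp in control (chr11:33963191-33963652), whose areas were 1780 in shHMGA1 and 842 in control. These sites at the ends of the range were neighbours, with no peak of either list between them.

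LDB1 is the dimerising member. Its 50 kb window held 7 shHMGA1 and 6 control peaks, a ratio of 1.17 (95% exact interval 0.336 to 4.20). They covered 8.58 kb in shHMGA1 and 8.24 kb in control cells, a ratio of 1.04. The covered ratio was 0.973 with the window widened by 50 kb at each end. None of the 7 shHMGA1 peaks (exact upper limit 41.0%) and none of the 6 control peaks (45.9%) was without a partner, beside 14.8% and 24.9% of the whole shHMGA1 and control lists, which at these numbers are few peaks. With a reciprocal overlap of 50%, 1 shHMGA1 peak and 0 control peaks had no partner that met it. Under that rule the shares were 29.6% of the whole shHMGA1 and 37.7% of the whole control list. The control peak chr10:103872786-103873644 (859 bp, area 563) met shHMGA1 peaks of 449 and 299 bp, 126 bp apart. With peaks merged within 150 bp the counts were 5 shHMGA1 and 6 control peaks, a ratio of 0.833.

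The largest LDB1 peak by area was chr10:103878707-103881730 in shHMGA1 (3024 bp, area 9504, summit value 8.78) and chr10:103878934-103881654 in control (2721 bp, area 7964, summit value 8.95). Its summits were 239 bp apart. The peak with the highest summit value was chr10:103892245-103893880 in shHMGA1 (1636 bp, value 13.2) and chr10:103892144-103893868 in control (1725 bp, value 14.0), with summits 8 bp apart. Between 103850001 and 103872030, 22.0 kb, neither list had a peak. Log2 width ratios of the 5 one-to-one sites ran from -0.14 (535 bp at chr10:103872077-103872611 in shHMGA1 and 591 bp at chr10:103872031-103872621 in control) to 0.29 (1589 bp at chr10:103876598-103878186 in shHMGA1 and 1300 bp at chr10:103876690-103877989 in control).

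**Figure D4:**
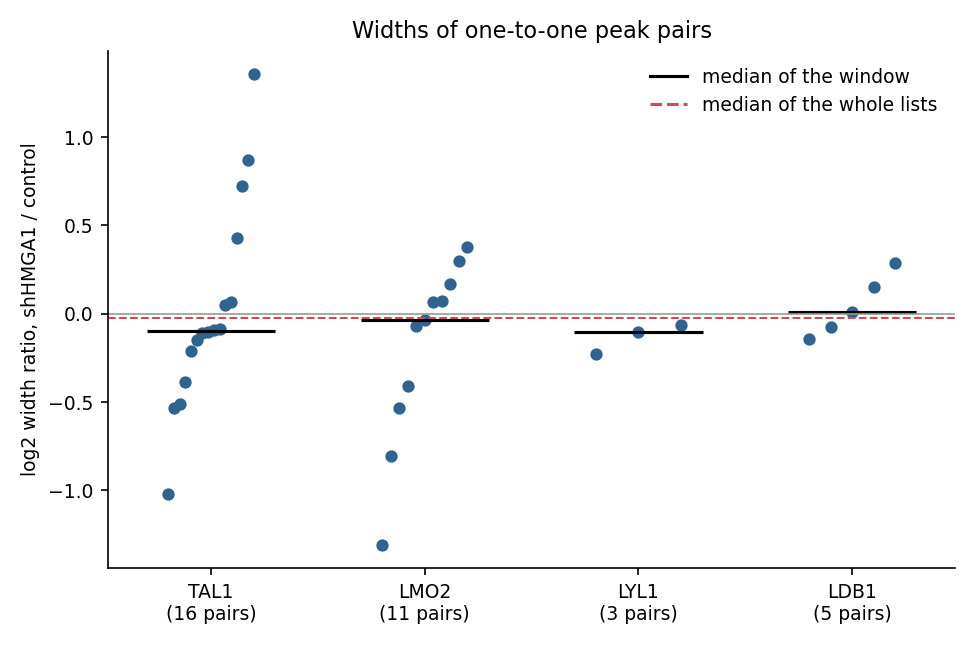
Each point is 1 site with exactly 1 peak in each list, by its log2 width ratio (shHMGA1 over control; above 0 is wider in shHMGA1), for each window. Black bars are the medians of the windows, -0.10 for TAL1, -0.10 for LYL1, -0.03 for LMO2 and 0.01 for LDB1, and the dashed line is the median of the whole lists, -0.03.

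Over the 4 windows together, 2 of 63 shHMGA1 peaks (3.17%, 95% exact interval 0.387 to 11.0) and 16 of 71 control peaks (22.5%, interval 13.5 to 34.0) had no partner. The control share was near the 24.9% of the whole control list, and so is no result about these loci. The shHMGA1 share was lower than the 14.8% of the whole shHMGA1 list. Wide peaks seldom lack a partner at 1 bp, and 21 of the 63 were among the widest 10% of that list, of which 0.204% had none. Median width was 740 bp for the 63 and 539 bp for the list. How far the low share goes with width was not tested. The intervals cover counting error only and treat peaks as independent. With a reciprocal overlap of 50% in place of 1 bp, 21 of 63 shHMGA1 and 29 of 71 control peaks had no partner that met it. Beside them stood 29.6% of the shHMGA1 and 37.7% of the control list. The low shHMGA1 share was thus seen under the 1 bp rule and not under this one. When a peak within 500 bp counted, 2 of 63 shHMGA1 peaks had no partner, beside 12.4% of the list. With peaks merged within 150 bp it was 2 of 50, beside 14.8%. With the same summit threshold of 5.24 on both lists it was 2 of 38, beside 10.3%. In lists of 56305 peaks each it was 3 of 38, beside 14.9%. Under both of these settings the peaks without a partner were all at LMO2, 2 of 11 and 3 of 11, and 0 at TAL1. They were other peaks than the 2 named above, whose summit values of 3.63 and 4.61 put them below both cuts. At LMO2 the share was thus not below that of the list.

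In control, strength of the peaks went with sharing at these loci as in the list. In shHMGA1 only 2 peaks had no partner, too few to show such a relation. Below the median summit value of their list, 2 of 25 shHMGA1 peaks and 15 of 32 control peaks had no partner, beside 28.1% and 45.9% of such peaks in the whole shHMGA1 and control lists. At or above the median, 0 of 38 shHMGA1 peaks and 1 of 39 control peaks had none, beside 1.54% and 3.92%. Of the 35 one-to-one sites, 21 were narrower and 14 wider in shHMGA1 (40.0% wider, beside 44.8% over the lists). The median log2 ratio was -0.08. Summits were within 50 bp of each other at 25 of these 35 sites (71.4%), close to the 73.5% of all such sites.

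**Figure D5:**
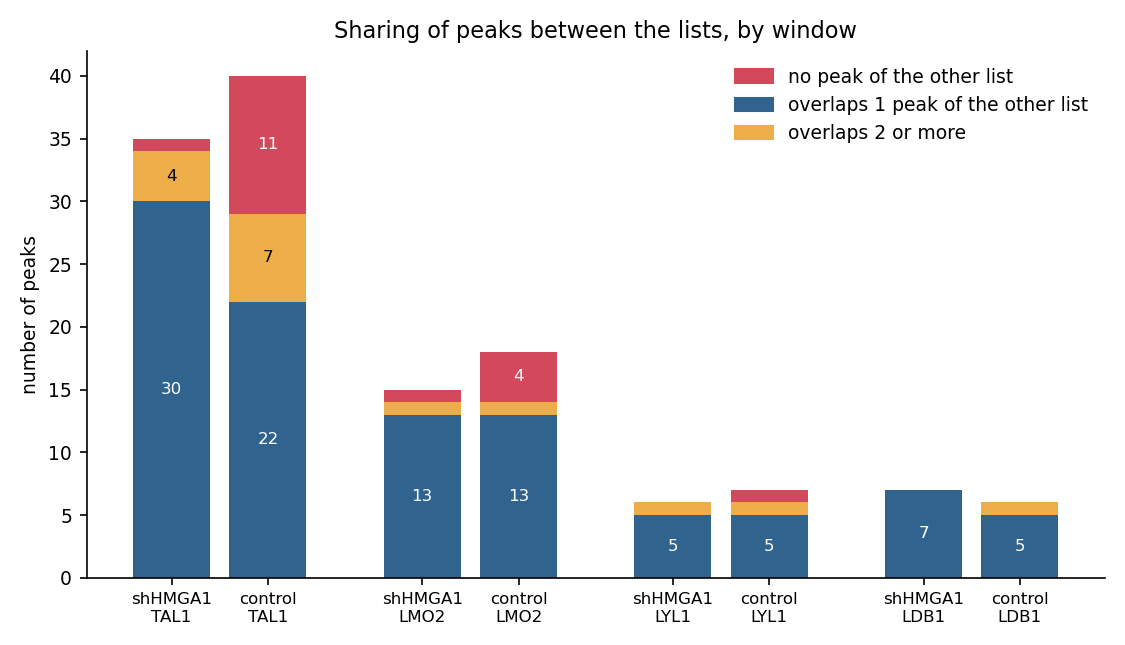
Bars give the number of peaks in each window, shHMGA1 beside control, split by how many peaks of the other list each overlaps. The largest number without a partner is 11 of 40 control peaks at TAL1 (27.5%, beside 24.9% of the whole control list). The LDB1 window has none, among only 7 shHMGA1 and 6 control peaks.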

How the data were processed

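The data were 2 ATAC-seq peak lists from samples labelled as DAMI cells (whether SET-2 reads entered them is not stated), 1 for the shHMGA1 group and 1 for the control group, each of 3 samples. Each list got its group from its own name. Per the submitters' processing notes, peaks were called with Genrich on hg19; for its version and settings, the aligner, the filters and the way samples were combined, nothing is given in the sources used here. The deposited signal column is the area of a peak under its significance curve, just over 200.0 at the least. For each summit, a −log10 p without adjustment for multiple testing was deposited. The deposited score equals 1000 times area over width, rounded and capped at 1000, for 112608 of 112610 shHMGA1 and all 127153 control peaks, and was not used. Area and summit value depend on read depth, which is unknown, so peaks were ranked by them within a list only. The exception was 1 alternative that set the same summit threshold on both lists. Where values of both lists are printed for a site, they describe it, and their difference was not tested.

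Peaks overlapping the windows were taken with positions counted from 1, and covered length was cut at the window edges. Overlap was computed on the whole lists, and a peak was shared where at least 1 bp overlapped the other list. Intervals are 95% exact Clopper-Pearson; those of ratios come from the shHMGA1 share of both counts and treat the lists as independent. The overlap step was checked on a list simulated from 127153 control peaks, with 0 wrong states. The windows, lists and alternatives were chosen with earlier results of these data known. Named in full are the largest peak by area in each window and list, unshared peaks (the 5 strongest where over 8), the extreme one-to-one sites and peaks with 2 or more partners. Sites named for their summit value, the other wide TAL1 peaks and the isolated ones were chosen after their values were seen. The planned partner genes and motifs in peaks were not analysed, for want of an hg19 annotation and genome. Start regions and gene order are from RefSeq, GRCh38.p14. The tools were scipy 1.17.1, matplotlib 3.10.9, pandas 2.3.3 and numpy 2.4.6 in Python 3.11.15.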

Additional observations from a re-analysis of the deposited data

How the results depend on the processing

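Counts of peaks without a partner moved with the rules. With a reciprocal overlap of 50%, 21 of 63 shHMGA1 and 29 of 71 control peaks of the 4 windows had no partner that met it. The shares of the whole shHMGA1 and control lists were 29.6% and 37.7%. Peaks that overlap the other list by less than this are among them, since only 2 shHMGA1 and 16 control peaks had no overlap at 1 bp. At 1 bp, the control-only count was 6 of 39 under the stricter threshold (the joined median summit −log10 p of 5.24), beside 21.8% of the control list so cut. When both lists were shortened to their 56305 strongest peaks it was 6 of 37, beside 15.4%. Fewer control peaks were left in the windows under both settings. Counts of peaks with 2 or more partners, whose alternatives were chosen after seeing the data, were 6 of 63 for shHMGA1 and 10 of 71 for control. Over the whole shHMGA1 and control lists the shares were 3.72% and 3.58%. For shHMGA1 and control they were 28 of 63 and 27 of 71 when a peak within 500 bp counted, beside 18.8% and 15.6% of the lists. Under the stricter threshold they were 2 of 38 and 3 of 39, beside 1.96% and 1.77%. In the shortened lists they were 1 of 38 and 3 of 37, beside 1.52% and 1.99%. After merging within 150 bp they were 4 of 50 and 4 of 59, beside 2.18% and 2.49%. Over the alternatives, the ratios of peak numbers ran from 0.784 to 0.944 at TAL1 and from 0.833 to 1.00 at LYL1. They ran from 0.857 to 1.22 at LMO2 and from 0.833 to 1.09 at LDB1. All of these lay within the counting intervals given above, which are wide. Ratios of covered length were 0.818 to 0.892 at TAL1 and 0.853 to 0.917 at LMO2. At LYL1 and LDB1 they were 1.13 and 1.06 under the stricter threshold, but below 1, at 0.968 and 0.973, with windows widened by 50 kb at each end. The causes were not tested. No paired analysis was possible because a group is represented by 1 peak list alone, and no replicate could be left out for the same reason. Unknown read depth limits every statement on weak peaks.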

Other observations

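Around the windows, peaks were counted by summit in the 500 kb on each side. Beside TAL1 there were 66 shHMGA1 and 92 control peaks in this 1000 kb, a ratio of 0.717, lower than the 0.875 within the window. Beside LMO2 there were 19 shHMGA1 and 23 control peaks (0.826). Beside LYL1 there were 47 shHMGA1 and 45 control peaks (1.04), and beside LDB1 45 and 47 (0.957) for shHMGA1 and control. Each of the 4 windows was denser than its surroundings in both lists, with 175 shHMGA1 and 200 control peaks per Mb in the TAL1 window, 75 and 90 at LMO2, 171 and 200 at LYL1, and 140 and 120 at LDB1.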
